A study of Mus musculus with 2 samples.

Results

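The Dlx genes Dlx1 to Dlx6 and the Hand genes Hand1 and Hand2, transcription factor genes that pattern the jaw, were described in RNA-seq libraries of lower molar tooth mesenchyme. The 8 genes were chosen by symbol, with earlier results of these data known. They make up 8 of the 21931 genes listed, with 9 transcript rows, since Dlx5 had 2. One library (n = 1) came from Osr2-/- embryos, the mutants, and the other (n = 1) from Osr2+/- embryos, the controls, both of mixed background at embryonic day 14.5. The molar mesenchyme was cut from frozen heads by laser capture and tissue from 3 pairs was pooled before RNA was extracted, so embryo-to-embryo spread was not measured. The controls carry 1 mutant Osr2 allele, although the series title speaks of wild type. Which exons the allele lacks is not stated in the sources used here. The comparison asks what the loss of Osr2, which encodes a zinc-finger factor made in tooth mesenchyme, does to gene expression in the molar mesenchyme. There are no replicates, so every difference below is one between these 2 libraries, and no p-value can be given.

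Dlx proteins are homeodomain transcription factors. Their genes lie in linked pairs that are transcribed towards each other, and in the pharyngeal arches of the mouse the pairs are expressed in a nested way: Dlx1 and Dlx2 in both the upper and the lower jaw primordia, Dlx5 and Dlx6 in the lower one, and Dlx3 and Dlx4 in its most distal part. Endothelin 1, acting through its receptor Ednra, turns on Dlx5 and Dlx6 in the lower jaw, and these in turn are needed for Hand2, a basic helix-loop-helix factor of the distal jaw. In mice that lack both Dlx1 and Dlx2 the upper molars do not form.

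Levels are in RPKM, reads per kilobase of transcript scaled to mapped reads. Comparisons between genes therefore rest on the listed transcript lengths, and the intervals do not cover errors in these. The length listed for Dlx1 is 2779 bases, against 4111 in its matched GENCODE transcript, while that of Dlx2 is 2473 in both. Read numbers were estimated from the deposited coverage, and every interval is a 95% counting interval that covers counting error of these amplified libraries only. The mutant library was 6.38 times as deep, at an estimated 34.3 M mapped reads, against 5.38 M for the control. Only an estimated 7.82 M reads in the mutant and 1.27 M in the control fell in the listed transcript rows. Osr2 was at 9.16 RPKM in the mutant and 38.7 RPKM in the control, lower in the library labelled mutant. All 8 dental mesenchyme markers, among them Msx1 at 36.8 RPKM in the mutant and 40.0 RPKM in the control, were above 1 RPKM in both libraries. Of them, 6 had a ratio of mutant to control with an interval below 1, but these 6 include Osr2 itself, the mutated gene. Among the 6, Pax9 was at 39.4 RPKM in the mutant and 61.7 RPKM in the control, a ratio of 0.639 (0.593 to 0.690). The intervals of Msx1 and Bmp4 included 1. Of all genes at 1 RPKM or more in at least 1 library, 15.9% had an interval below 1. Each library had a lane of its own, going by the deposited files' names, so an effect of lane and one of genotype cannot be told apart. Dental epithelium markers were present as well, with a summed level of 73.2 RPKM over 19 genes in the mutant and 53.8 RPKM in the control.

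Dlx5, Dlx6, Dlx1 and Dlx2 were expressed at moderate levels in both libraries, while the genes of the most distal jaw, Dlx3, Dlx4, Hand1 and Hand2, were low or listed at 0. Dlx5 was the most abundant member, at 18.2 RPKM in the mutant (interval 17.0 to 19.5) and 18.9 RPKM in the control (15.9 to 22.2), above 96.3% of all genes listed in each library. Dlx2 followed at 8.41 RPKM in the mutant and 7.78 RPKM in the control, then Dlx1 at 5.24 RPKM in the mutant and 6.68 RPKM in the control. Dlx6, the linked partner of Dlx5, was at 3.20 RPKM in the mutant and 3.57 RPKM in the control. Below these came Dlx3 at 1.57 RPKM in the mutant and 0.332 RPKM in the control, and Hand2 at 0.462 RPKM in the mutant and 0.147 RPKM in the control. Dlx4 was at 0.0302 RPKM in the mutant, about 1.89 reads, and listed at 0 in the control. Hand1 was listed at 0 in both.

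The order of the 8 levels was the same in both libraries, Dlx5 first and Hand1 last, with Dlx4 and Hand1 tied at 0 in the control. In the mutant library the interval of each detected member stood clear of the next one down. In the shallower control library the intervals of Dlx2 and Dlx1 overlapped, as did those of Dlx1 and Dlx6 and those of Dlx3 and Hand2, so these neighbours could not be ordered there.

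**Figure D1:**
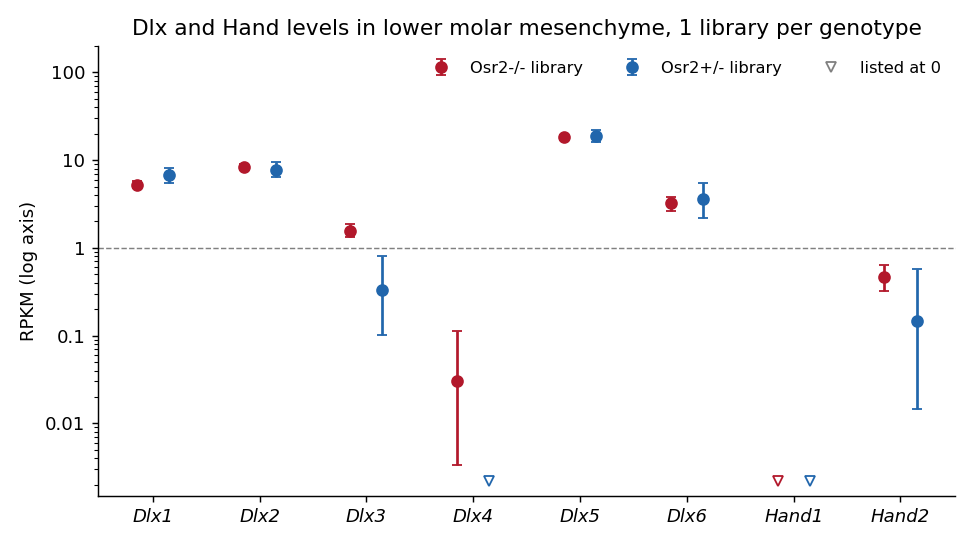
RPKM (log axis) of the 8 members in the Osr2-/- library (red, left) and the Osr2+/- library (blue, right), with 95% counting intervals as bars, open triangles for genes listed at 0 and a dashed line at 1 RPKM. Dlx5, Dlx2, Dlx1 and Dlx6 lie above 1 RPKM in both libraries, Dlx3 only in the mutant at 1.57 RPKM, and Dlx4, Hand1 and Hand2 lie below 1 RPKM in both.

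The 6 Dlx genes encode closely related homeodomains, so the 180 bases that encode the homeodomain are shown to let their RNAs be told apart by eye. They were read from the GENCODE M21 coding sequences (GRCm38) of the transcripts matched to the deposited rows, and capitals mark the 92 bases that are identical in all 6. The stretch runs from coding base 409 to 588 in Dlx5, 511 to 690 in Dlx6, 382 to 561 in Dlx1, 463 to 642 in Dlx2, 385 to 564 in Dlx3 and 346 to 525 in Dlx4.
Dlx5: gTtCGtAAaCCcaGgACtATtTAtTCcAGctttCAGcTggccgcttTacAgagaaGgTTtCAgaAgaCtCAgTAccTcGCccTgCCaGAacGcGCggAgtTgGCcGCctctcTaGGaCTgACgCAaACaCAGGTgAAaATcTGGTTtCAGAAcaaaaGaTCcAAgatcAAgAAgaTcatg
Dlx6: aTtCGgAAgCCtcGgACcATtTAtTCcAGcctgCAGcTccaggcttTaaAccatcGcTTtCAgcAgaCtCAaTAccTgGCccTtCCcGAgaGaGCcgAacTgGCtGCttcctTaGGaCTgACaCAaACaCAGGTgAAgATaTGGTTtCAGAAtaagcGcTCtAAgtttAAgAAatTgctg
Dlx1: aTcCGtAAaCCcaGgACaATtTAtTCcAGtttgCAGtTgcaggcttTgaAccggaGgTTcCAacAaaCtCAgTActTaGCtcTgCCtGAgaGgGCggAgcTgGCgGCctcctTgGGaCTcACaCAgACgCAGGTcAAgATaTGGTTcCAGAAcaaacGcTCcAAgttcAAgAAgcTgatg
Dlx2: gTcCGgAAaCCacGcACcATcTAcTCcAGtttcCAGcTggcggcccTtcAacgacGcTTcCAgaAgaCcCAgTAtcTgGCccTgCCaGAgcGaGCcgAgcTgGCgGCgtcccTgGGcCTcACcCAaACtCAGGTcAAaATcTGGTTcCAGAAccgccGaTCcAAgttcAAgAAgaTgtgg
Dlx3: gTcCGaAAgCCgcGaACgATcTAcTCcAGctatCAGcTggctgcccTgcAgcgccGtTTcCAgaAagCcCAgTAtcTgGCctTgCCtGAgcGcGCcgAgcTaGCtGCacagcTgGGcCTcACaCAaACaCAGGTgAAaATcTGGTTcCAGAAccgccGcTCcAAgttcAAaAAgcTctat
Dlx4: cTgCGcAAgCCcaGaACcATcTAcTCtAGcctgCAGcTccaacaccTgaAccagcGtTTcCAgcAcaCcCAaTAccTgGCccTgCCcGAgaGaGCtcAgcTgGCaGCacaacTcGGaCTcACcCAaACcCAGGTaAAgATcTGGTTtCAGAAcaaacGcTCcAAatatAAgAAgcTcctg

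Over these bases the 15 pairs of Dlx genes were 66.1% to 81.7% identical, with Dlx2 and Dlx3 the most alike and Dlx3 and Dlx6 the least. The linked partners Dlx5 and Dlx6 shared 73.3%, and Dlx1 and Dlx2 shared 73.9%. Over the whole transcripts, the longest run of bases shared without a mismatch by any 2 of the 8 members was 23, found for example between Dlx2 and Dlx3. The length of the sequenced reads is not stated in the sources used here.

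Dlx5 and Dlx6, the pair of the lower jaw, were at nearly equal levels in the mutant and the control library. The ratio of mutant to control was 0.967 (interval 0.808 to 1.16) for Dlx5, on about 878 reads in the mutant and 143 in the control. For Dlx6 it was 0.898 (0.559 to 1.51), on about 118 reads in the mutant and 20.5 in the control. Dlx6 was at 0.176 times the level of Dlx5 in the mutant (0.144 to 0.213) and 0.189 times in the control (0.113 to 0.302), so the balance of the pair did not differ beyond counting error. The interval of Dlx6 is wide, and a difference of up to 1.79-fold lower in the mutant lies within it.

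The genes lie on chromosome 6 of mm9, Dlx6 from 6813334 to 6817970 and Dlx5 from 6827805 to 6832068, 9.84 kb apart. Dlx5 is listed with a transcript of 1406 bases and one of 1324 bases. The GENCODE transcript matched to the shorter one has 438 coding bases, against 867 for the longer, and its coding sequence holds no match to the homeodomain core searched for. The longer form was at 17.9 RPKM in the mutant and 18.9 RPKM in the control. The shorter form was at 0.380 RPKM in the mutant, 2.08% of all Dlx5 RPKM there and about 17.2 reads, and nearly 0 in the control. At the mutant level the control library would hold about 2.70 reads of it, so its absence from the control was at the edge of what that depth could show.

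Dlx1 and Dlx2, the pair needed for upper molars, were also both expressed, and Dlx1 was somewhat lower in the mutant library while Dlx2 was not. Dlx2, on chromosome 2 from 71381465 to 71384811, had a ratio of 1.08 (0.879 to 1.34), on about 714 reads in the mutant and 104 in the control. Dlx1, from 71367502 to 71372037, had a ratio of 0.784 (0.631 to 0.982), 1.28-fold lower in the mutant, on about 499 reads in the mutant and 99.8 in the control. The level of Dlx1 was 0.622 times that of Dlx2 in the mutant (0.554 to 0.699) and 0.858 times in the control (0.645 to 1.14), and these intervals overlap.

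Dlx1as, an RNA on the opposite strand whose locus overlaps Dlx1, was at 4.88 RPKM in the mutant and 4.46 RPKM in the control, a ratio of 1.09 (0.846 to 1.44). The labels do not say that strand was kept, so reads in the overlap cannot be divided between the 2 genes by strand. With both rows summed, the level was 10.1 RPKM in the mutant and 11.1 RPKM in the control, a ratio of 0.908 (0.770 to 1.08), and the interval no longer excluded 1. The RNAs that overlap Dlx6 were scarce, with Dlx6os1 at 0.677 RPKM in the mutant and 0.773 RPKM in the control, and Dlx6as at 0.0831 RPKM in the mutant and 0.180 RPKM in the control.

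Dlx3 was the member that differed most. Dlx3, which encodes a homeodomain factor of placenta, epidermis, hair, tooth and bone, lies on chromosome 11 from 94981431 to 94986605 and was 4.73-fold higher in the mutant (1.92 to 15.6). It rested on about 140 reads in the mutant and only 4.65 in the control. Its log2 ratio on the RPKM + 1 scale was 0.95, just short of 2-fold because the added 1 shrinks differences of low genes, and 1.73% of the 9741 genes tested lay farther from 0. Of genes at 1 to 2 RPKM in the mutant, 6.43% had an interval above 1. Dlx3 was at 0.0862 times the level of Dlx5 in the mutant (0.0716 to 0.103) and 0.0176 times in the control (0.00535 to 0.0433), and these intervals do not overlap. Its linked partner Dlx4, from 95001761 to 95007115, stayed at the level of single reads. At the mutant level of Dlx4 the control library would hold about 0.296 reads, so a difference in Dlx4 was not detectable at this depth.

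Most tested markers of cell types that can go with Dlx3 were also higher in the mutant library. The marker lists were chosen with earlier results of these data known, so their counts are a description. Of 19 dental epithelium markers listed, 15 could be tested. Of these, 13 had a positive log2 ratio, and 8 intervals lay above 1 and none below. Of all genes tested, 7.77% had an interval above 1 and 15.9% one below 1. Cdh1, Grhl2 and Krt18 passed the filter only through the mutant, where they are higher. The summed level of all 19 epithelium markers was 1.36-fold higher. Krt5 was at 16.3 RPKM in the mutant and 13.9 RPKM in the control, a ratio of 1.17 (0.992 to 1.38) whose interval includes 1. Shh was at 0.175 RPKM in the mutant and listed at 0 in the control, where about 2.51 reads would be expected at that level, and its interval includes 1. Of 10 osteoblast markers, 6 could be tested, of which 5 had an interval above 1 and 1, Phex, below. Of those 5, Ibsp, Sp7 and Ifitm5 passed the filter only through the mutant, so the count is partly set by the filter. The summed level of all 10 osteoblast markers was 50.9 RPKM in the mutant and 18.6 RPKM in the control, 2.74-fold higher. Bglap, Bglap2, Ifitm5 and Spp1 were listed at 0 in the control. For Bglap, Bglap2 and Spp1, with about 1.77, 5.38 and 4.83 reads in the mutant, under 1 control read would be expected at the same level, so a difference was not detectable. Ifitm5 had about 27.1 reads in the mutant, and about 4.25 control reads would be expected at that level. Sp7, the osterix gene, was at 3.84 RPKM in the mutant and 0.607 RPKM in the control. Of 8 chondrocyte markers, 3 could be tested, Sox9, Sox6 and Col2a1, and all 3 had an interval above 1. The other 5 were below 1 RPKM in both libraries. Of these, Matn1 was listed at 0 in both. Acan and Comp had about 2.41 and 4.03 reads in the mutant and were listed at 0 in the control. Col9a1 was at 0.163 RPKM in the mutant and 0.328 RPKM in the control, and Sox5 had a ratio of 1.07. The intervals of both include 1. Of 5 endothelial markers 1 had an interval below 1, no neuron or glia marker of 7 reached 1 RPKM, and of 4 skeletal muscle markers 1 could be tested and its interval included 1. Below the filter, the muscle marker Ttn had a ratio of 4.12 (2.42 to 9.29), on about 295 reads in the mutant and 10.3 in the control. Myog and Myod1 had about 15.7 and 3.04 reads in the mutant and were listed at 0 in the control, and their intervals include 1. The part of these cell types in the Dlx3 difference was not tested. In pooled tissue, a different number of cells of a type and a different amount of RNA per cell cannot be told apart.

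**Figure D2:**
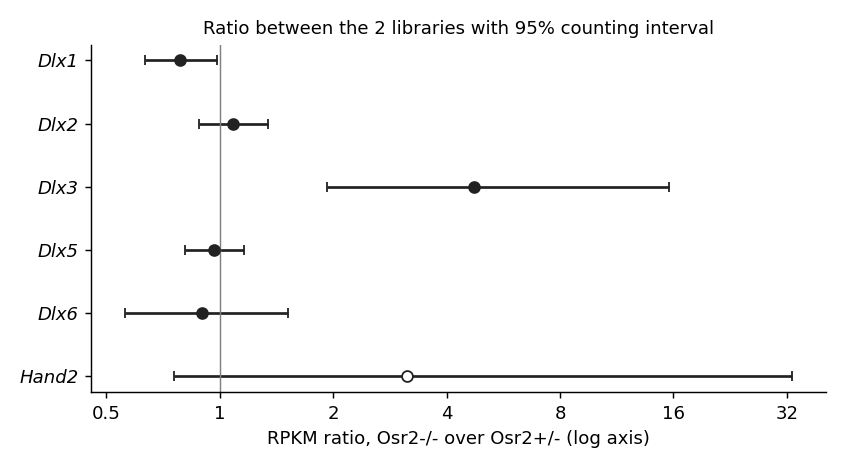
Ratio of RPKM, Osr2-/- over Osr2+/- (log axis), for the 6 members with reads in both libraries, with 95% counting intervals as bars and an open point for Hand2, which is below 1 RPKM in both. The interval of Dlx3 (1.92 to 15.6) lies above 1, that of Dlx1 (0.631 to 0.982) just below 1, and the others include 1.

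The Hand genes were scarce, with Hand2 detected in the mutant library and at the limit of detection in the control. Hand2, on chromosome 8 from 59799780 to 59803314, had a ratio of 3.14 with an interval of 0.754 to 33.0, on about 35.4 reads in the mutant and 1.77 in the control. Its interval includes 1, so the 2 libraries cannot be ordered for Hand2. Hand1, on chromosome 11 from 57642215 to 57645649, was listed at 0 in both libraries, and no ratio can be given.

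For the 2 members that contrast most in level and have an entry in the RefSeq promoter table, the 250 bases before the start of transcription are shown (GRCm38.p6). Dlx2 has its stretch at chr2:71546755-71547004 on the minus strand, and the nearly silent Hand2 at chr8:57320733-57320982 on the plus strand. Capitals mark matches, on either strand, to the homeodomain core TAATTA or TAATTG and to the E-boxes CACGTG and CATCTG; the marked matches do not overlap.
Dlx2: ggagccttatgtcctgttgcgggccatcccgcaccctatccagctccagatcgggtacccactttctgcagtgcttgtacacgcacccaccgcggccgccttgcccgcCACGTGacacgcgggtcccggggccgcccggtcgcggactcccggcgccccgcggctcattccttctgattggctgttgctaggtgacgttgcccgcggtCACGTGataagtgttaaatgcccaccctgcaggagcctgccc
Hand2: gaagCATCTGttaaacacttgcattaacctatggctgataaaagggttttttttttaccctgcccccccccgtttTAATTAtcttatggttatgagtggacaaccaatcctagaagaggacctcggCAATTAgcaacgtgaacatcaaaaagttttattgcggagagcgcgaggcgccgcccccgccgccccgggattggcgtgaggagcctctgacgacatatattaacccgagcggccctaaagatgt

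The Hand2 stretch holds 1 TAATTA, 1 TAATTG read on the other strand and 1 CATCTG. The Dlx2 stretch holds 2 CACGTG and no match to the other 3. Dlx1, the third member in the table, has no match to any of the 4. Among the 32851 promoter stretches of the same length in the table, TAATTA was found in 4.84%, TAATTG in 7.17%, CACGTG in 6.02% and CATCTG in 14.4%. The GC content was 66.4% for Dlx2, 68% for Dlx1 and 49.2% for Hand2, against a median of 52.4%. These matches describe the letters only.

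Counted together, the members differed little between the libraries. Of the 8 members, 5 reached 1 RPKM in at least 1 library and could be tested, and Dlx4, Hand1 and Hand2 could not. None of the 5 was at least 2-fold higher, against 0.801% of all genes tested, and none at least 2-fold lower, against 0.77%. An interval above 1 was found for 1 of 5, Dlx3, against 7.77% of all genes tested, and an interval below 1 for 1 of 5, Dlx1, against 15.9%. Dlx3 passed the filter only through the mutant library, where it is higher, so these counts are a description and support no direction for the members. The counts of 2-fold differences, here and for the lists below, are on the RPKM + 1 scale, where differences of low genes are smaller than their plain ratios. The shares of all genes tested given here are also the ones to set beside the counts of the lists below. The median log2 ratio of the 5 was -0.05, the same as the -0.05 of all 9741 genes tested. The summed RPKM of the 6 Dlx genes was 36.7 in the mutant and 37.2 in the control. Dlx5 held 49.7% of that sum in the mutant and 50.7% in the control, Dlx2 22.9% in the mutant and 20.9% in the control, Dlx1 14.3% in the mutant and 17.9% in the control, and Dlx3 4.28% in the mutant and 0.893% in the control.

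**Figure D3:**
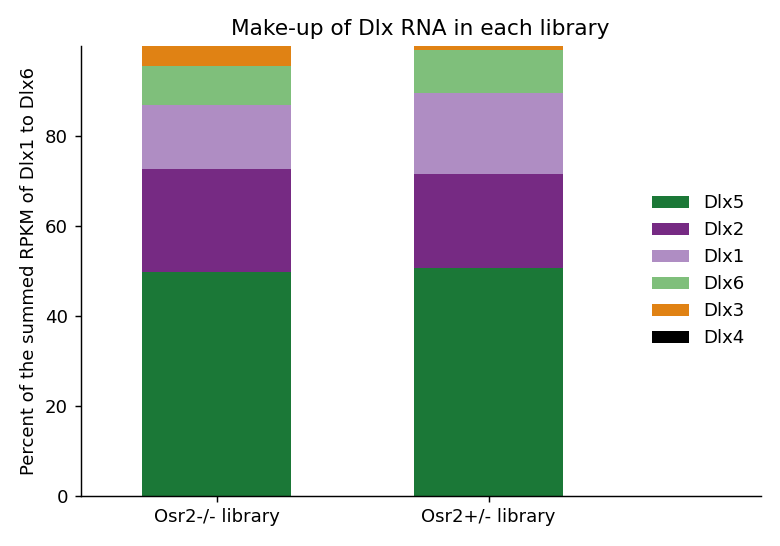
Percent of the summed RPKM of Dlx1 to Dlx6 held by each gene in the Osr2-/- library (left bar) and the Osr2+/- library (right bar). Dlx5 fills 49.7% of the left bar and 50.7% of the right one, and the Dlx3 segment is 4.28% on the left and 0.893% on the right.

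Genes of the endothelin signal, which acts upstream of Dlx5, Dlx6 and Hand2 in the early arch, were close to equal in both libraries. Of 12 listed, 10 could be tested, none was 2-fold apart, 1 had an interval above 1 and none below, and the median log2 ratio was 0.04. The receptor gene Ednra was at 14.1 RPKM in the mutant and 12.8 RPKM in the control, a ratio of 1.10 (0.964 to 1.26). The ligand gene Edn1, which the arch makes outside the mesenchyme, was nearly absent, with about 3.49 reads in the mutant and 1.16 in the control. Mef2c, a transcription factor that acts in the same pathway, was 1.47-fold higher (1.23 to 1.78). Furin, a protease that processes precursor proteins, had a ratio of 0.859 (0.692 to 1.08), and Ednrb, the other endothelin receptor gene, one of 0.849 (0.590 to 1.29).

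Other transcription factors of the lower jaw lay on both sides. Of 17 listed, 10 could be tested, none was 2-fold apart, 3 had an interval above 1 and 4 below, with a median log2 ratio of -0.08. Lhx8, a LIM homeodomain gene of the oral mesenchyme, had a ratio of 0.655 (0.580 to 0.741). Tbx3, a T-box gene, had a ratio of 0.635 (0.558 to 0.726), and Barx1, a homeobox gene of the molar region, one of 0.686 (0.604 to 0.782). Tbx2, another T-box gene, was 1.81-fold higher (1.24 to 2.75). Msx1 had a ratio of 0.921 (0.830 to 1.02). Gsc, a homeobox gene downstream of endothelin in the arch, was below the filter, at 0.235 RPKM in the mutant and 0.884 RPKM in the control, about 5.58 reads there.

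Genes of the upper jaw and proximal arch were lower on balance in the mutant library, by small amounts. Of 8 listed, 6 could be tested, none was 2-fold apart, 4 had an interval below 1 and none above, and the median log2 ratio was -0.27. Of all genes tested, 15.9% had an interval below 1. Nr2f2, an orphan nuclear receptor gene, was at 3.84 RPKM in the mutant and 5.87 RPKM in the control, a ratio of 0.655 (0.540 to 0.796). Jag1, a Notch ligand gene, had a ratio of 0.729 (0.634 to 0.842), and the homeobox gene Six2 had one of 0.824 (0.747 to 0.911). Pou3f3, a marker of the upper jaw primordium, was at 0.706 RPKM in the mutant and 0.712 RPKM in the control.

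BMP genes, whose signal feeds into Hand expression, and genes of protein partners were mostly near equal. Of 10 BMP genes, 8 could be tested, none was 2-fold apart, 1 had an interval above 1 and 2 below. The median log2 ratio was 0.11, but -0.03 with only the highest transcript row per gene. Bmp2 was 2.35-fold higher (1.62 to 3.53), with a log2 ratio of 0.95 on the RPKM + 1 scale, and Grem1, a secreted BMP antagonist gene, was at 0.957 RPKM in the mutant and 2.12 RPKM in the control, a ratio of 0.451 (0.262 to 0.809), and passed the filter only through the control. Bmp7 had a ratio of 1.42 (0.762 to 2.92), Twsg1 one of 0.862 (0.773 to 0.962) and Bmp4 one of 1.07 (0.872 to 1.31). All 7 partner genes could be tested, of which 1 was at least 2-fold higher, and the median log2 ratio was -0.05. Twist2, a basic helix-loop-helix gene, was at 4.51 RPKM in the mutant and 1.62 RPKM in the control, 2.79-fold higher (1.54 to 5.60). Twist1, its paralogue and a dimer partner of Hand proteins, was at 22.0 RPKM in the mutant and 21.7 RPKM in the control. Tcf12, an E-protein gene whose product pairs with such factors, had a ratio of 0.876 (0.811 to 0.948), Tcf4, another E-protein gene, one of 1.06 (0.961 to 1.15), and Maged1, which encodes a Dlx5-binding protein, one of 0.906 (0.859 to 0.956).

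**Figure D4:**
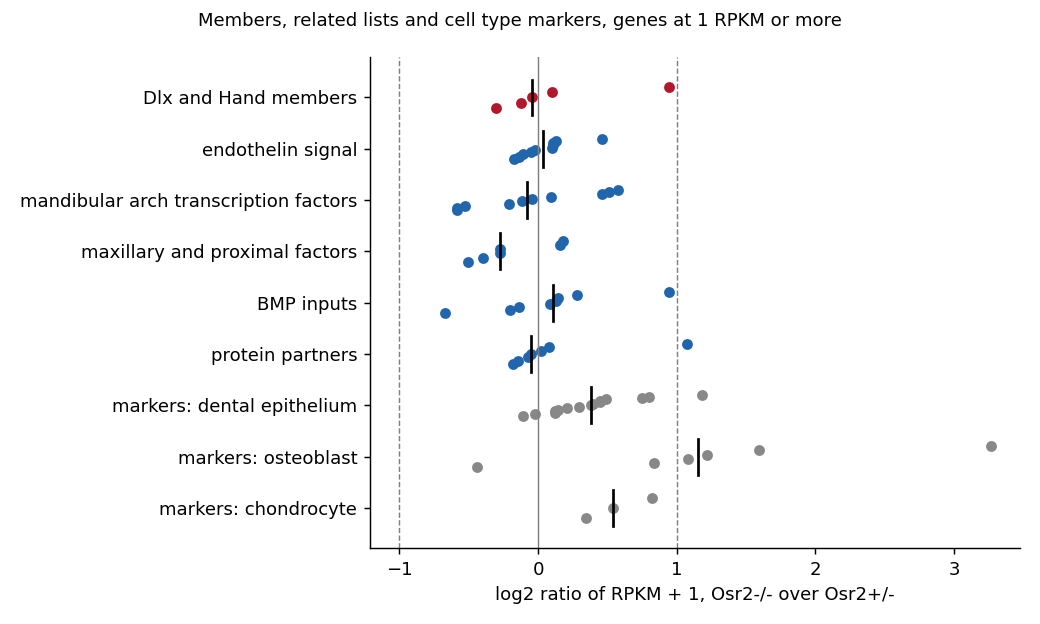
log2 ratio of RPKM + 1, Osr2-/- over Osr2+/-, for each gene at 1 RPKM or more in at least 1 library, by list; points are genes, black bars are list medians and dashed lines mark 2-fold. The 5 members tested (red) lie between -0.30 and 0.95 with a median of -0.05, and the osteoblast markers have the highest median, 1.15, of the lists plotted. Not plotted are the dental mesenchyme markers (median -0.37) and the endothelial markers (-0.17). Also left out are skeletal muscle markers and opposite-strand RNAs (1 gene tested each, both 0.11), and neuron and glia markers (none tested).

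The genes around the members were likewise at similar levels. Within 500 kb of the members lay 58 other genes, of which 39 could be tested, with a median log2 ratio of -0.08. On the RPKM + 1 scale none of them was 2-fold higher and 1, Sap30l, was 2-fold lower, while 5 had an interval above 1 and 4 below. Beside Dlx5 and Dlx6, Shfm1 was at 9.34 RPKM in the mutant and 9.36 RPKM in the control, and Acn9 had a ratio of 0.777 (0.383 to 1.75). Beside Dlx1 and Dlx2, Metap1d had a ratio of 0.734 (0.392 to 1.49) and Itga6, an integrin gene, one of 1.07 (0.889 to 1.29). On either side of Dlx3 and Dlx4, Pdk2 had a ratio of 0.863 (0.654 to 1.16) and Myst2, a histone acetyltransferase gene, one of 0.987 (0.800 to 1.21), so neither shared the higher level of Dlx3. The nearest expressed neighbours of the Hand genes, which are paralogues that encode subunits of histone deacetylase complexes, went in opposite directions. Sap30, 158 kb from Hand2, was at 1.71 RPKM in the mutant and 0.417 RPKM in the control, 4.09-fold higher as a plain ratio (1.27 to 23.4) and 0.93 as a log2 ratio of RPKM + 1, on about 69.2 reads in the mutant and only 2.65 in the control. Sap30 passed the filter only through the mutant library, where it is higher. Sap30l, 18.1 kb from Hand1, was at 1.04 RPKM in the mutant and 3.34 RPKM in the control, a ratio of 0.312 (0.194 to 0.511). On the other side of Hand1, Larp1 had a ratio of 1.18 (1.04 to 1.34).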

How the data were processed

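RNA was measured in 1 library of Osr2-/- and 1 of Osr2+/- lower molar mesenchyme. Per the labels' protocols, laser-captured tissue was extracted with a column kit and amplified with the NuGEN Ovation RNA-Seq v2 kit. The tools named are Bowtie 0.12.7 and TopHat 1.4.1, with build mm9, per the submitters' processing notes. The authors deposited RPKM values and unscaled coverage (mean read depth) for 28107 RefSeq transcript rows, per the file headers; locus starts are given counted from 1.

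Rows of both files were joined on identifier and locus, 348 rows without an OK status in both libraries were left out, and RPKM was summed per symbol with no rescaling. Libraries were compared by log2((mutant RPKM + 1)/(control RPKM + 1)) for 9741 genes at 1 RPKM or more in at least 1 library; ratios with an interval are plain RPKM ratios. Reads were approximated as coverage times length over 44.3 bases, the median product between 20 and 66 bases averaged over the libraries. Among genes with a single row, 477 products fell between 30 and 60 bases in the mutant and 767 in the control, against 46 in the mutant and 54 in the control between 10 and 30, so low values gather near 1 read. The step stays an estimate. Intervals are exact Poisson (levels) and Clopper-Pearson (ratios) at 95%, computed with scipy 1.17.1. The code was run on simulated Poisson counts. These hold no amplification error and no spread between libraries, so that run cannot show how the intervals fare under either. No count model was fitted. Alternatives changed the pseudocount, scaling, filter, row summing, row status and bases per read. All members, up to 4 genes per list with the largest absolute log2 ratio, genes with a stated role and the nearest expressed neighbours are named. Some genes of the lists are counted but not reported here by name. Members and lists were chosen with earlier results of these data known. Sequences are from GENCODE M21 and RefSeq (GRCm38), whose coordinates were not combined with those of mm9.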

Additional observations from a re-analysis of the deposited data

How the results depend on the processing

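With 1 library per genotype, no result has a replicate check, and no paired analysis was possible because each genotype has 1 library. None of the members was at least 2-fold lower under any of the 8 alternatives. The number at least 2-fold higher became 1 with a pseudocount of 0.1 (Dlx3) and 2 on the TPM scale (Dlx3 and Hand2, of 6 tested). Values of these genes are larger on the TPM scale, so the added 1 and the filter of 1 weigh less there. Hand2 rests on about 1.77 control reads, and its counting interval (0.754 to 33.0) includes 1. The median log2 ratio of the members was 0.071 on the TPM scale, against -0.05 with RPKM as deposited. Over all genes, the numbers at least 2-fold higher and lower were 78 and 75; they became 188 and 239 with a pseudocount of 0.1, 885 and 694 on the TPM scale (14023 genes tested) and 19 and 24 with a filter of 5 RPKM (3889 tested). The log2 ratio of Dlx3 ranged from 0.95 to 1.97 and that of Dlx1 from -0.35 to -0.23, the latter with upper quartile scaling. With the Dlx1as row added to that of Dlx1 it was -0.13. That of Dlx5 ranged from -0.08 to 0.03, so its sign is not fixed. Of the list medians, that of the BMP genes was -0.03 with the highest row per gene, against 0.11. That of the lower jaw factors, -0.08, was 0.003 with upper quartile scaling, and that of the partners, -0.05, was 0.03 with that scaling and 0.02 with the highest row, so their signs are not fixed. That of the opposite-strand RNAs, 0.11 from 1 gene tested, was -0.13 on the TPM scale and -0.08 without the filter, each from 3 genes. That of the upper jaw genes was -0.17 without the filter, against -0.27. With 1.5 times as many bases per read the interval of Dlx1 reached 1.04 and no longer excluded 1, while that of Dlx3 started at 1.59. The sums with overlapping opposite-strand rows were chosen after the data were seen. The depth of the control library limits Dlx3, Dlx4 and Hand2 most.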
